A study of Mus musculus with 12 samples.

Results

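The clustered protocadherins are the genes of the alpha, beta and gamma protocadherin clusters (Pcdha, Pcdhb and Pcdhg). They were taken by symbol, with pseudogenes left out, and comprised 58 of the 46603 genes counted: 14 of the alpha cluster, 22 of the beta cluster and 22 of the gamma cluster. All lie on the plus strand of chromosome 18 (GRCm38), from position 36930184 to position 37841873. The alpha genes run from 36930184 to 37187661, the beta genes from 37264938 to 37524479 and the gamma genes from 37661793 to 37841873.

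Chd8 encodes a chromatin remodelling enzyme. The study sequenced mRNA of microdissected mouse cortex to look for expression programs that might lie behind the brain overgrowth and behaviour of Chd8+/- mice. There were 12 libraries, 3 each of Chd8+/+ and Chd8+/- cortex at embryonic day 12.5 (E12.5, both hemispheres) and at postnatal day 5 (P5, 1 hemisphere). Chd8+/- mice carried 1 null allele, made by deleting exon 3 between loxP sites with a β-actin Cre that was then bred out, and both genotypes came from crosses of Chd8+/- mice with C57BL/6J, the background of all 4 groups. The labels do not say whether each library was a separate animal, so p-values measure only the spread between these samples, which may be technical.

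Clustered protocadherins are cell-surface proteins of neurons that bind the identical protein on a facing membrane. A neuron switches on a few of them by the choice of promoters, each in front of its own variable first exon, and the resulting combination lets the branches of one neuron recognise each other. In the alpha and gamma clusters each variable exon, which encodes the extracellular, transmembrane and proximal cytoplasmic parts, is spliced to constant exons shared by the whole cluster, whereas a beta gene is a single exon with no constant part. The C-type members (Pcdhac1, Pcdhac2, Pcdhgc3, Pcdhgc4 and Pcdhgc5) are made more uniformly by neurons than the alternate members. Gamma protocadherins are known for dendrite self-avoidance and for the survival of interneurons, and the alpha protocadherins for axon targeting.

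This gene structure set what could be counted. Each alpha gene was annotated with 4 exons, each beta gene with 1 and each gamma gene with 3 to 5, and reads on bases that belong to several genes were not assigned to any at P5, where the counting command was recorded. The bases left to a single gene came to a median of 2475 per alpha gene, 3714 per beta gene and 2587 per gamma gene. Pcdhga10 had 0 such bases, because the gene model Gm26672 and the constant exons cover it, and Pcdha4 had 404, because Gm38225 and Gm42416 overlap its first exon. Both were left out where levels are given per kb. Exons of other genes also overlapped part of the first exon of Pcdha7, Pcdhb12, Pcdhgc3 and others, among them 1559 bases of Pcdhgc3 with BC037039 and 1927 bases of Pcdhb12 with Gm37446. The genes that overlap members had 0.41 to 1.68 CPM (Gm26672) or 0.79 to 1.56 CPM (BC037039), and Gm10544 had 5.36 to 7.77 CPM at E12.5 and 0.55 to 0.89 CPM at P5. Here CPM stands for counts per 1000000 assigned reads, scaled over all 12 libraries. Within the first exons, sequences of 50 bases that recur in another gene made up 10.2% to 26.6% of each alternate alpha gene, 0% to 12% of each beta gene and 2.67% to 16.8% of each gamma B gene, so the split of reads among those near-identical copies is uncertain. The first exons of the 5 C-type members held none.

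Depth was similar throughout, with 38774591 to 54695236 reads assigned to genes per library. Chd8 itself (ENSMUSG00000053754, chromosome 14, 52198151 to 52257723) had 229 to 236 CPM in the Chd8+/+ and 161 to 167 CPM in the Chd8+/- libraries at E12.5, a log2 fold change of −0.51 (SE 0.0394, adjusted p = 0.00562, edgeR quasi-likelihood test). At P5 it had 145 to 151 and 95.01 to 98.6 CPM, a log2 fold change of −0.61 (SE 0.0343, adjusted p = 7.21e-05). The groups did not overlap at either stage. Markers of the dissected tissue went with the labelled stages: summed CPM of 8 progenitor genes was 3345 to 3572 in Chd8+/+ cortex at E12.5 and 250.5 to 281 at P5, and that of 7 genes of all neurons was 3153 to 3714 and 8110 to 8325. No gene of the neuronal and progenitor lists was at 0 in every library.

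Pcdhgc3 and a few other members, mostly gamma genes, held the highest levels. Per kb of unshared exon, Pcdhgc3 (ENSMUSG00000102918), a C-type gamma gene, was the highest member over the 12 libraries at 28 CPM per kb, and it was also the highest within each group, at 23.3 ± 1.67 in Chd8+/+ and 24.1 ± 1.18 in Chd8+/- cortex at E12.5 and 34.1 ± 1.67 and 30.4 ± 1.47 at P5 (CPM per kb, mean ± SD, n = 3 each). At P5 this rank depends on the length used, and the 1559 bases that Pcdhgc3 shares with BC037039 are not in its unshared length. Per deposited gene length Pcdhgc4 was above Pcdhgc3 in all 6 P5 libraries, with 18.02% to 18.96% of the gamma cluster in Chd8+/+ cortex where Pcdhgc3 had 14.6% to 15.1%, and 17.15% to 18.65% in Chd8+/- cortex where Pcdhgc3 had 16.1% to 16.5%. Next over all libraries came Pcdhga11 at 13.2, Pcdhgc4 at 11.4, Pcdhac2 at 9.01 and Pcdhgb6 at 6.88 CPM per kb. The level of Pcdhga11 rests on 1256 unshared bases, as Gm26672 covers 1381 bases of its first exon, so its rank also depends on the length used. Before scaling by length, Pcdhga3 and Pcdhga11 had means of 9.04 and 10.04 CPM at E12.5 and 27.5 and 27.04 CPM at P5 in Chd8+/+ cortex. Their exons hold 4720 and 4756 bases in all. At P5 in Chd8+/+ cortex the order below Pcdhgc3 was Pcdhgc4 at 22.6 ± 1.87, Pcdhga11 at 21.5 ± 1.05 and Pcdhac2 at 16.4 ± 1.92 CPM per kb, in which Pcdhgc4 and Pcdhga11 differed by less than the larger of their SDs. At E12.5 in Chd8+/+ cortex the order below Pcdhgc3 was Pcdhga11 at 7.99, Pcdhgb6 at 6.43 and Pcdhgb7 at 4.64 CPM per kb, with Pcdhgc4 at 2.40 and Pcdhac2 at 2.35 further down. The beta genes lay lower, led by Pcdhb20 at 3.07, Pcdhb7 at 2.77 and Pcdhb17 at 2.59 CPM per kb over all libraries. Within the alpha cluster the alternate members Pcdha12 (3.77) and Pcdha5 (3.17 CPM per kb) followed Pcdhac2. The other C-type members, Pcdhgc5 at 1.81 and Pcdhac1 at 0.86 CPM per kb, were not among the high ones.

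At the low end, Pcdhb1 had 0 to 0.0616 CPM at E12.5 and 0.0431 to 0.224 CPM at P5 and was not tested in any comparison. Pcdha8 had 0 to 0.184 CPM at E12.5 and 0.352 to 1.43 CPM at P5. Pcdha1 had 0 to 0.167 CPM at E12.5 and 2.43 to 4.68 CPM at P5. These members therefore rest on few reads at E12.5, and were not tested between the genotypes there. The Chd8+/- libraries of Pcdha1 at E12.5 (0 to 0.0895 CPM) all lay below the Chd8+/+ libraries (0.0964 to 0.167 CPM). The rank order of the 56 members with a level per kb was close between the genotypes (Spearman's rho 0.983 at E12.5 and 0.99 at P5) and less so between the stages (0.683 in Chd8+/+ and 0.633 in Chd8+/-). These correlations are across genes of shared libraries and are given as a description.

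**Figure D1:**
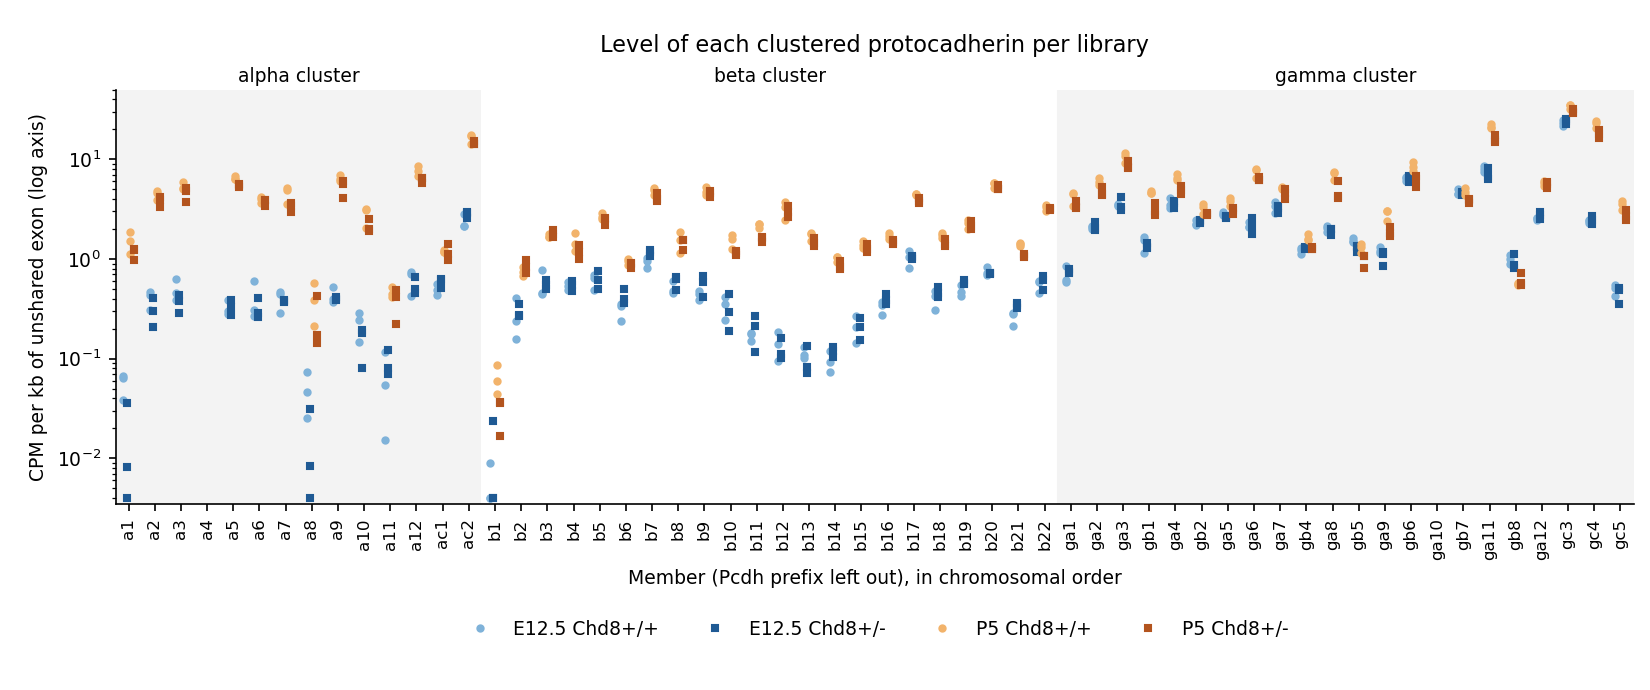
Level of each member in each library, in CPM per kb of unshared exon on a log axis, with members in chromosomal order and colours and shapes for the 4 groups (3 libraries each). Values of 0 are drawn at the lower edge, Pcdha4 and Pcdhga10 have no value, Pcdhgc3 is highest in every group on this scale (at P5 Pcdhgc4 is above it per deposited gene length), and P5 points lie above E12.5 points for nearly all alpha and beta genes but not for Pcdhgb5, Pcdhgb7 and Pcdhgb8 in either genotype, nor for Pcdhgb4 and Pcdhgb6 in Chd8+/- cortex.

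The stage comparison asked how the clusters differ between the embryonic cortex, in which progenitors are abundant, and the early postnatal cortex of neurons that extend axons and form synapses. Nearly all members rose. In Chd8+/+ cortex 54 of the 57 tested members were called higher at P5 and 1 lower, where 41.4% of all genes tested were called higher and 41.7% lower (edgeR, adjusted p under 0.05). In Chd8+/- cortex 52 were called higher and 3 lower, where the figures for all genes were 41.3% and 41.6%. Of the 55 tested members with at least 1 kb of unshared exon, 52 were called higher and 1 lower in Chd8+/+ cortex. In Chd8+/- cortex 50 of these were called higher and 3 lower. The median log2 fold change of the members was 2.22 in Chd8+/+ and 1.87 in Chd8+/- cortex, beside −0.018 and −0.0046 over all genes tested. The stages were sequenced as separate sets and lie in separate count tables, so age, the dissected part and the sequencing set cannot be told apart. In bulk tissue, more cells that make a transcript and more of it per cell cannot be told apart either. The progenitor and neuronal sums given above moved between the stages, as did that of 6 astrocyte markers (332 to 341 and 1543 to 1595 CPM in Chd8+/+ cortex). So did the sums of striatal neuron markers (14.05 to 16.8 and 267 to 290.4 CPM), choroid plexus markers (42.3 to 95.5 and 431 to 562), oligodendrocyte precursor markers (76.5 to 87.1 and 368 to 397) and microglia markers (28.6 to 31.0 and 91.1 to 119). Excitatory neuron (604 to 697 and 1282 to 1371) and endothelial markers (132 to 137 and 141 to 157) were also higher at P5. Lower at P5 were the sums of erythrocyte (380 to 433 and 53.5 to 56.1), GABAergic interneuron (616 to 642.5 and 458 to 476) and meningeal markers (282 to 368 and 206 to 228). The part of these markers in the change of the members was not tested.

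The clusters differed in how far they rose. All 14 alpha genes were called higher at P5 in both genotypes, with a median log2 fold change of 3.47 in Chd8+/+ and 3.595 in Chd8+/- cortex. All 21 tested beta genes were also called higher, with medians of 2.37 and 1.90. Of the 22 gamma genes, 19 were called higher and 1 lower in Chd8+/+ and 17 and 3 in Chd8+/- cortex, with medians of 1.19 and 0.93. Summed over a cluster, the alpha genes had 13.6 to 19.4 CPM at E12.5 and 141.5 to 159.5 CPM at P5 in the Chd8+/+ libraries, a ratio of means of 9.45. The beta genes had 32.1 to 41.2 and 193.8 to 211 CPM, a ratio of 5.38, and the gamma genes 171 to 178 and 373 to 422 CPM, a ratio of 2.32. The sums of the 2 stages did not overlap for any cluster. In the Chd8+/- libraries the same ratios were 7.88, 4.34 and 1.89. With 3 libraries against 3 an exact permutation test cannot go below 0.10, so the sums carry no test.

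**Figure D2:**
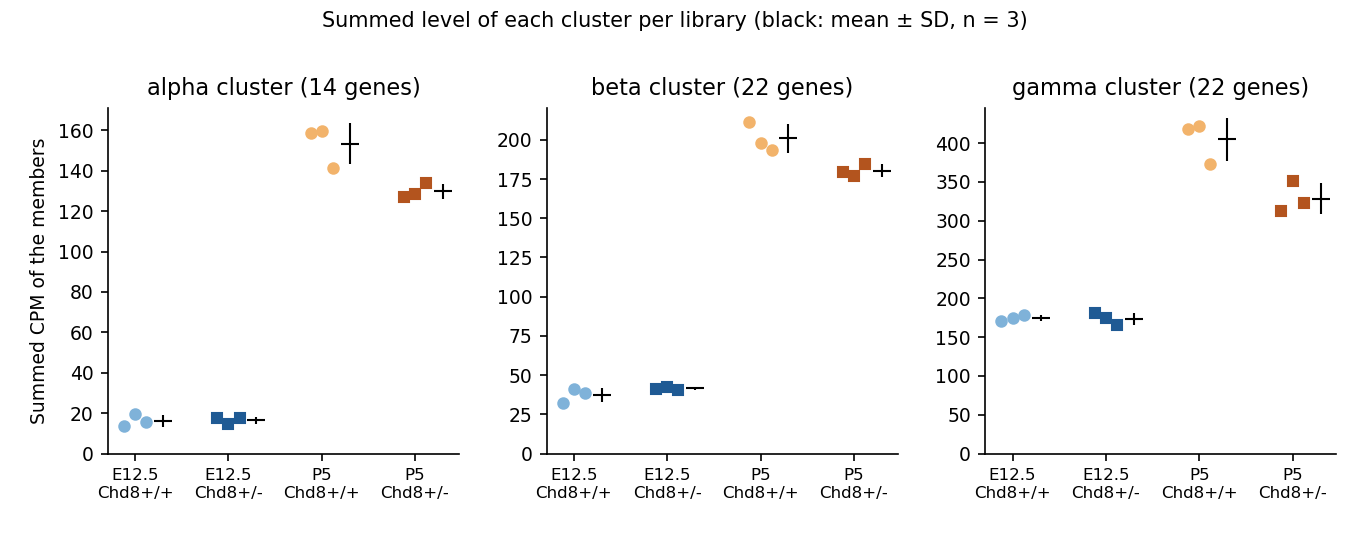
Summed CPM of the members of each cluster in each library, with the mean ± SD (n = 3) of each group in black and each vertical axis starting at 0. All P5 sums lie above all E12.5 sums, and at P5 the Chd8+/- libraries lie below the Chd8+/+ libraries in each cluster.

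Among the alpha genes Pcdha5 (ENSMUSG00000103092), an alternate member, had 0.655, 0.920 and 0.711 CPM in the Chd8+/+ libraries at E12.5 and 14.9, 16.1 and 14.96 CPM at P5. It rose by 4.34 on the log2 scale (SE 0.121, adjusted p = 1.06e-13), and by 4.04 (SE 0.123, adjusted p = 2.57e-13) in Chd8+/- cortex. Pcdha12 rose by 3.63 and 3.51 and Pcdha1 by 4.72 and 6.15, the latter from the near-zero reads given above, so its size depends on how zeros are handled. The C-type member Pcdhac2 (ENSMUSG00000102697) had 6.46, 8.48 and 6.44 CPM in Chd8+/+ cortex at E12.5 and 52.2, 53.7 and 42.95 CPM at P5, and rose by 2.80 (SE 0.110, adjusted p = 4.51e-12). Pcdhac1 rose by 1.27 (SE 0.161, adjusted p = 3.77e-06), from 1.12 to 1.42 CPM to 2.98 to 3.17 CPM. Both C-type members thus had smaller log2 fold changes than any of the 12 alternate alpha genes in Chd8+/+ cortex, whose range was 2.88 to 4.72 with Pcdhac2 at 2.80 close below it. In Chd8+/- cortex Pcdhac2, at 2.37, lay above the alternate gene Pcdha11, at 2.06.

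Among the beta genes Pcdhb20 (ENSMUSG00000046191) had 2.47, 2.97 and 2.57 CPM in Chd8+/+ cortex at E12.5 and 20.7, 20.7 and 18.4 CPM at P5. It rose by 2.90 (SE 0.0870, adjusted p = 2.26e-13), and by 2.86 in Chd8+/- cortex. Pcdhb17 rose by 2.12 and 1.89, and Pcdhb7 by 2.38 and 1.83. The beta genes with the largest log2 fold changes stood in a run in the middle of the cluster: Pcdhb9 at 3.47, Pcdhb11 at 3.68, Pcdhb12 at 4.48, Pcdhb13 at 3.90 and Pcdhb14 at 3.40 in Chd8+/+ cortex, with Pcdhb10 at 2.18 between them. This run was singled out after the values were seen. Apart from Pcdhb1, Pcdhb11 to Pcdhb14 also had the lowest E12.5 levels of the beta genes in Chd8+/+ cortex, from 0.0953 (Pcdhb14) to 0.168 CPM per kb (Pcdhb11). Pcdhb12 was at 0.105 to 0.207 CPM at E12.5 and 2.71 to 4.10 CPM at P5, and is partly covered by Gm37446 (0 to 0.0767 CPM at E12.5 and 0.164 to 0.335 CPM at P5). The smallest rise of the cluster in Chd8+/+ cortex was that of Pcdhb4, at 1.47.

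In the gamma cluster the C-type members went different ways in size. Pcdhgc4 (ENSMUSG00000023036) had 8.02, 8.60 and 8.42 CPM in Chd8+/+ cortex at E12.5 and 84.01, 80.4 and 71.4 CPM at P5, and rose by 3.24 (SE 0.0938, adjusted p = 1.58e-13). Pcdhgc5 rose by 2.82 (SE 0.139, adjusted p = 6.74e-11), from 1.95 to 2.51 CPM to 14.3 to 17.5 CPM. Pcdhgc3 had 42.0, 39.7 and 45.7 CPM at E12.5 and 63.5, 64.2 and 58.6 CPM at P5, and rose by 0.55 (SE 0.0628, adjusted p = 1.25e-06). In Chd8+/- cortex the values of the 3 genes were 2.87, 2.62 and 0.34.

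The gamma A genes all rose in both genotypes, with a median of 1.48 in Chd8+/+ and 1.17 in Chd8+/- cortex, from Pcdhga5 at 0.40 and 0.22 to Pcdhga1 at 2.62 and 2.20. They include Pcdhga10, which had 0 unshared bases and 0.0447 to 0.689 CPM, so its reads cannot be credited to it alone. Pcdhga11 (ENSMUSG00000102742) rose by 1.43 (SE 0.0895, adjusted p = 1.12e-09) and 1.17. The gamma B genes did not all rise. In Chd8+/+ cortex 4 of 7 were called higher and 1 lower, beside 41.4% and 41.7% of all genes tested. In Chd8+/- cortex 2 were called higher and 3 lower, beside 41.3% and 41.6% of all genes. Their medians were 0.40 and −0.087. Pcdhgb8 (ENSMUSG00000103081) had 2.72, 2.21 and 2.49 CPM at E12.5 and 1.36, 1.40 and 1.43 CPM at P5 in Chd8+/+ cortex. It fell by 0.82 on the log2 scale (SE 0.159, adjusted p = 0.000236) there and by 0.60 (SE 0.161, adjusted p = 0.00331) in Chd8+/- cortex, and its groups did not overlap in either.

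Pcdhgb5 and Pcdhgb7 were close to the threshold. Pcdhgb5 had 6.88 to 7.43 CPM at E12.5 and 5.34 to 6.56 CPM at P5 in Chd8+/+ cortex, a log2 fold change of −0.24 (SE 0.116, adjusted p = 0.0687) that was not called, and fell by 0.39 (SE 0.121, adjusted p = 0.00884) in Chd8+/- cortex. Leaving out the P5 Chd8+/+ library 1 or the P5 Chd8+/- library 3 gave an adjusted p of 0.0467 or 0.0333 for Pcdhgb5 in Chd8+/+ cortex, and offsets for gene length gave 0.0454. Pcdhgb7 had 8.09 to 9.14 and 8.06 to 9.51 CPM, a log2 fold change of 0.04 (adjusted p = 0.662), and fell by 0.24 (adjusted p = 0.0165) in Chd8+/- cortex, a call that was lost without the E12.5 Chd8+/- library 1 (0.0735), without the P5 Chd8+/- library 2 (0.0586) or with DESeq2 (0.0872). Summed, the 7 gamma B genes had 48.0 to 50.02 CPM at E12.5 and 59.7 to 68.7 CPM at P5 in Chd8+/+ cortex, and 45.2 to 49.95 and 47.4 to 52.8 CPM, which overlap, in Chd8+/- cortex.

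**Figure D3:**
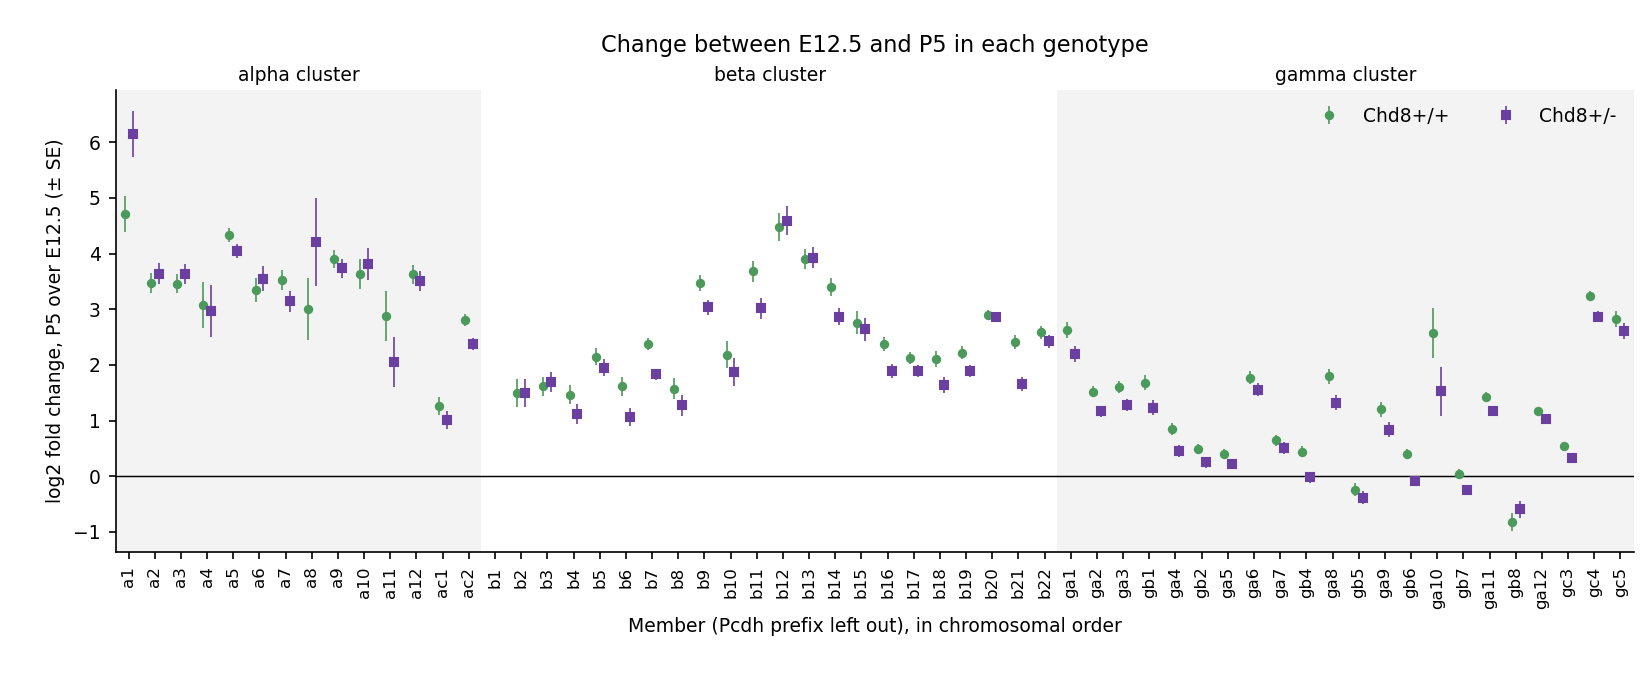
Log2 fold change of each member from E12.5 to P5 (edgeR, bars ± SE) in Chd8+/+ (circles) and Chd8+/- cortex (squares), with members in chromosomal order. Alpha genes reach 4.72 and 6.15 (Pcdha1), the gamma B genes range from 1.68 and 1.23 (Pcdhgb1) to −0.82 and −0.60 (Pcdhgb8).

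The make-up of the clusters shifted with these changes. As a share of all clustered protocadherin reads per unshared base, the gamma genes took 81.2% to 85.3% of the total in Chd8+/+ cortex at E12.5 and 59.2% to 60.4% at P5. The alpha genes took 5.92% to 8.04% and 22.1% to 22.5%, and the beta genes 8.80% to 10.7% and 17.1% to 18.7%. These levels depend on the length used: per deposited gene length, which includes shared bases, the beta share was 17.8% to 21.2% and 30.1% to 32.4% and the gamma share 71.5% to 76.6% and 49.6% to 51.3%, with the same direction between the stages. Within the alpha cluster the C-type members took 43.5% to 49.3% in the Chd8+/+ libraries at E12.5 and 26.8% to 29.6% at P5. In the Chd8+/- libraries the same share was 52.3% to 55.8% at E12.5, above all Chd8+/+ libraries, and 29.5% to 30.97% at P5, which overlaps the Chd8+/+ range. Within the gamma cluster Pcdhgc3 took 28.5% to 31.9% in Chd8+/+ cortex at E12.5 and 20.4% to 20.95% at P5, beside 31.5% to 32.1% and 22.4% to 22.9% in Chd8+/- cortex. The share of Pcdhgc4 was 3.07% to 3.23% at E12.5 and 13.4% to 14.1% at P5 in Chd8+/+ cortex, and that of the gamma B genes 23.9% to 24.6% and 14.7% to 15.2%. At P5 the gamma B share was 13.97% to 14.2% in the Chd8+/- libraries, below all Chd8+/+ libraries. These shares add up to a fixed total within a library, so they are not independent of each other and were not tested.

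**Figure D4:**
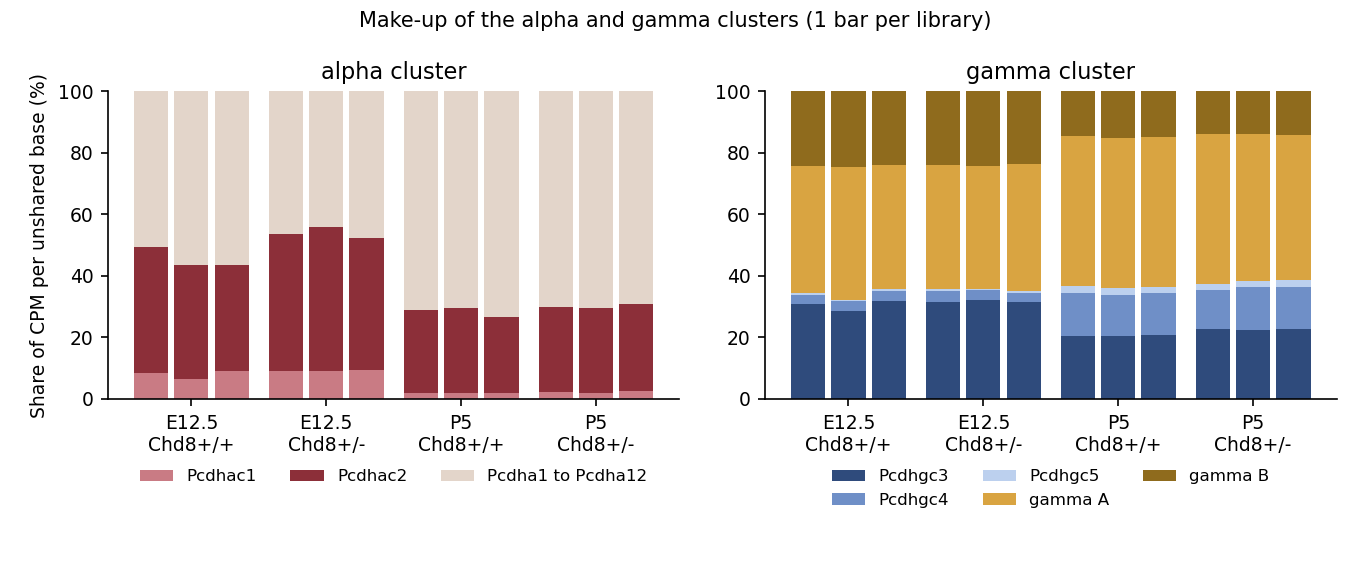
Share of the summed CPM per unshared base taken by each C-type gene and by the alternate genes within the alpha cluster (left) and within the gamma cluster (right), with 1 bar per library and Pcdha4 and Pcdhga10 left out. The C-type share of the alpha cluster is 43.5% to 49.3% in Chd8+/+ and 52.3% to 55.8% in Chd8+/- cortex at E12.5 and at most 30.97% at P5, and the Pcdhgc4 segment of the gamma cluster grows from E12.5 to P5.

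The genotype comparison asked which members depend on the second copy of Chd8. At E12.5 no member was called by edgeR or voom among the 51 tested, or by DESeq2 among the 32 to which it gave an adjusted p, where 0.00553% of all genes, Chd8 alone, were called by edgeR. At an unadjusted p under 0.05 there was 1 member lower (2.84% of all genes) and 1 higher (2.31%). All Chd8+/- libraries lay below all Chd8+/+ libraries for 2 members (5.76% of all genes) and above them for 4 (5.6%). The members were divided in direction, with 24 of 51 at a log2 fold change below 0 and a median of 0.02. The median was −0.15 for the 10 tested alpha genes, 0.18 for the 20 beta genes, of which 15 were above 0, and −0.015 for the 21 gamma genes. The alpha and beta medians moved with single libraries. The alpha median was −0.35 without the Chd8+/+ library 1 and 0.031 without the Chd8+/+ library 2. It was −0.085 without the Chd8+/- library 2 and −0.25 without the Chd8+/- library 3. The beta median was 0.057, with 9 genes below 0, without the Chd8+/+ library 1. The members not tested at this stage for low counts were Pcdha1, Pcdha4, Pcdha8, Pcdha11, Pcdhb1, Pcdhb12 and Pcdhga10.

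The members with the smallest p at E12.5 were Pcdhgb5 and Pcdhb7. Pcdhgb5 (ENSMUSG00000103749) had 7.06, 7.43 and 6.88 CPM in the Chd8+/+ and 6.03, 6.26 and 5.42 CPM in the Chd8+/- libraries, a log2 fold change of −0.27 (SE 0.0964, unadjusted p = 0.0197, adjusted p = 0.942, edgeR). Pcdhb7 (ENSMUSG00000045062) had 2.85, 3.38 and 3.55 against 3.78, 4.14 and 4.31 CPM, a log2 fold change of 0.32 (SE 0.129, unadjusted p = 0.0328, adjusted p = 0.942, edgeR). In both genes the groups did not overlap, and neither passed the threshold. Pcdhb19 and Pcdhb21 had log2 fold changes of 0.28 and 0.39 with groups that did not overlap, and Pcdha3 one of −0.41 with groups that did. The C-type genes were at 0.23 (Pcdhac1), 0.25 (Pcdhac2), 0.05 (Pcdhgc3), 0.04 (Pcdhgc4) and −0.12 (Pcdhgc5), with groups that overlapped in each.

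At P5 the values of nearly all members were lower in the Chd8+/- libraries, though none passed the threshold in edgeR or voom. The edgeR test called 0 of 57 members, where 0.00536% of all genes, again Chd8 alone, were called. At an unadjusted p under 0.05 there were 28 members lower and 0 higher, where 9.77% of all genes were lower and 8.0% higher. The log2 fold change was below 0 for 54 of the 57 members, where it was for 49.6% of all genes. All Chd8+/- libraries lay below all Chd8+/+ libraries for 22 members (14.8% of all genes) and above them for 0 (8.55%). DESeq2, the tool the study used, called 11 of the 45 members to which it gave an adjusted p, all lower, where it called 3.55% of all such genes lower. The median log2 fold change of the members was −0.25, beside 0.0017 over all genes tested. The members share a locus, and the first exons of many hold sequences that recur in other members. Their common direction therefore does not count as 57 separate observations. Reads on the shared constant exons were not assigned to any gene at P5.

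These calls depended on the setting. The 11 called by DESeq2 were Pcdha7, Pcdhb11, Pcdhga2, Pcdhga4, Pcdhga8, Pcdhga9, Pcdhga11, Pcdhgb1, Pcdhgb6, Pcdhgc4 and Pcdhgc5. With edgeR on all genes with at least 1 count 13 members were called, all lower, where 1.97% of all genes were called lower (617 of 31265). Without the P5 Chd8+/- library 2 edgeR called 7 members, Pcdhga2, Pcdhga8, Pcdhga9, Pcdhga11, Pcdhgb1, Pcdhgb6 and Pcdhgc4, all lower, where 1.11% of all genes were called lower (212 of 19044). Without any other single library it called 0 members. At an adjusted p under 0.1 edgeR called 5 members lower, where 0.509% of all genes were called lower (95 of 18666).

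The clusters were not equal in size of difference at P5. The 22 gamma genes had a median log2 fold change of −0.31, 21 of them below 0 and 17 at an unadjusted p under 0.05. The 14 alpha genes had a median of −0.26, all below 0 and 3 at an unadjusted p under 0.05, and the 21 tested beta genes one of −0.12, 19 below 0 and 8 at an unadjusted p under 0.05. Without the P5 Chd8+/+ library 1 the beta median was −0.058 with 14 below 0. Within the gamma cluster the median was −0.29 for gamma A and −0.36 for gamma B. Summed CPM was 141.5 to 159.5 in the Chd8+/+ and 127 to 134 in the Chd8+/- libraries for alpha, 193.8 to 211 and 177 to 185 for beta, and 373 to 422 and 312 to 351 for gamma, with ratios of means of 0.846, 0.897 and 0.812. The groups did not overlap in any cluster at P5. At E12.5 the sums overlapped in each cluster, with ratios of 1.015, 1.11 and 0.993. Whether the clusters differ from each other in this respect was not tested.

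Among the gamma A genes Pcdhga11, an alternate member, was the highest per kb of unshared exon. At P5 it had 28.5, 26.8 and 25.8 CPM in the Chd8+/+ and 19.5, 21.9 and 18.9 CPM in the Chd8+/- libraries. Its log2 fold change was −0.41 (SE 0.0673, adjusted p = 0.095 by edgeR and 0.000112 by DESeq2). Leaving out single libraries moved its adjusted p in edgeR between 0.0205 and 0.39, and other edgeR and voom settings between 8.4e-05 and 0.148. Pcdhga9 had 10.5, 10.5 and 8.34 against 5.89, 7.30 and 6.29 CPM, a log2 fold change of −0.58 (SE 0.114, adjusted p = 0.095 by edgeR and 0.00117 by DESeq2). In both genes every Chd8+/- library lay below every Chd8+/+ library.

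Among the gamma B genes Pcdhgb1 (ENSMUSG00000103037) had 12.6, 12.2 and 11.9 CPM in the Chd8+/+ and 8.003, 9.60 and 7.30 CPM in the Chd8+/- libraries at P5. Its log2 fold change was −0.54 (SE 0.0975, adjusted p = 0.095 by edgeR and 0.000495 by DESeq2), with adjusted p between 0.0183 and 0.39 when single libraries were left out. Pcdhgb6 had 21.7, 23.9 and 19.6 against 13.6, 17.3 and 16.2 CPM, a log2 fold change of −0.45 (SE 0.0949, adjusted p = 0.0973 by edgeR). The groups did not overlap in either gene. Pcdhgb5, lower at E12.5 as well, had 5.34 to 6.56 against 3.70 to 4.94 CPM, a log2 fold change of −0.40 (adjusted p = 0.167, edgeR). Pcdhgb8 was the only gamma member with a value above 0, at 0.16 (adjusted p = 0.638, edgeR), and its groups overlapped.

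Among the beta genes Pcdhb11 (ENSMUSG00000051486) had 9.89, 9.12 and 9.84 CPM in the Chd8+/+ and 7.16, 6.57 and 7.28 CPM in the Chd8+/- libraries at P5, without overlap. Its log2 fold change was −0.44 (SE 0.0807, adjusted p = 0.095 by edgeR and 0.00647 by DESeq2), with adjusted p between 0.0534 and 0.39 when single libraries were left out. Pcdhb20, the highest beta gene per kb over all libraries, had 18.4 to 20.7 against 17.9 to 19.8 CPM, a log2 fold change of −0.08 (adjusted p = 0.546, edgeR). The other 2 members above 0 at P5 were beta genes, Pcdhb2 at 0.19 and Pcdhb3 at 0.09, with groups that overlapped.

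Among the alpha genes Pcdha5 had 14.9 to 16.1 CPM in the Chd8+/+ and 12.4 to 13.2 CPM in the Chd8+/- libraries, a log2 fold change of −0.24 (SE 0.0641, adjusted p = 0.125, edgeR). Pcdha12 had 13.2 to 16.7 against 11.3 to 12.5 CPM, a log2 fold change of −0.29 (adjusted p = 0.158, edgeR). Neither overlapped between the genotypes. Pcdha7 was at −0.44 (adjusted p = 0.153 by edgeR, 0.0362 by DESeq2 and 0.0118 by edgeR on all genes with at least 1 count) with groups that overlapped.

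The C-type members had a median of −0.16 at P5 and ranged from Pcdhac1 at −0.0028, with groups that overlapped, to Pcdhgc5 at −0.31. Pcdhgc4, which is required for the survival of interneurons, had 84.01, 80.4 and 71.4 CPM in the Chd8+/+ and 56.5, 69.1 and 62.0 CPM in the Chd8+/- libraries. Its log2 fold change was −0.31 (SE 0.0734, adjusted p = 0.11 by edgeR and 0.00208 by DESeq2), and its groups did not overlap. Pcdhgc3 had 58.6 to 64.2 against 53.3 to 58.5 CPM, a log2 fold change of −0.15 (SE 0.0481, adjusted p = 0.166, edgeR), with its groups apart by a small margin. Pcdhac2 had 42.95 to 53.7 against 42.8 to 45.9 CPM, a log2 fold change of −0.16 (adjusted p = 0.293, edgeR), and overlapped.

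**Figure D5:**
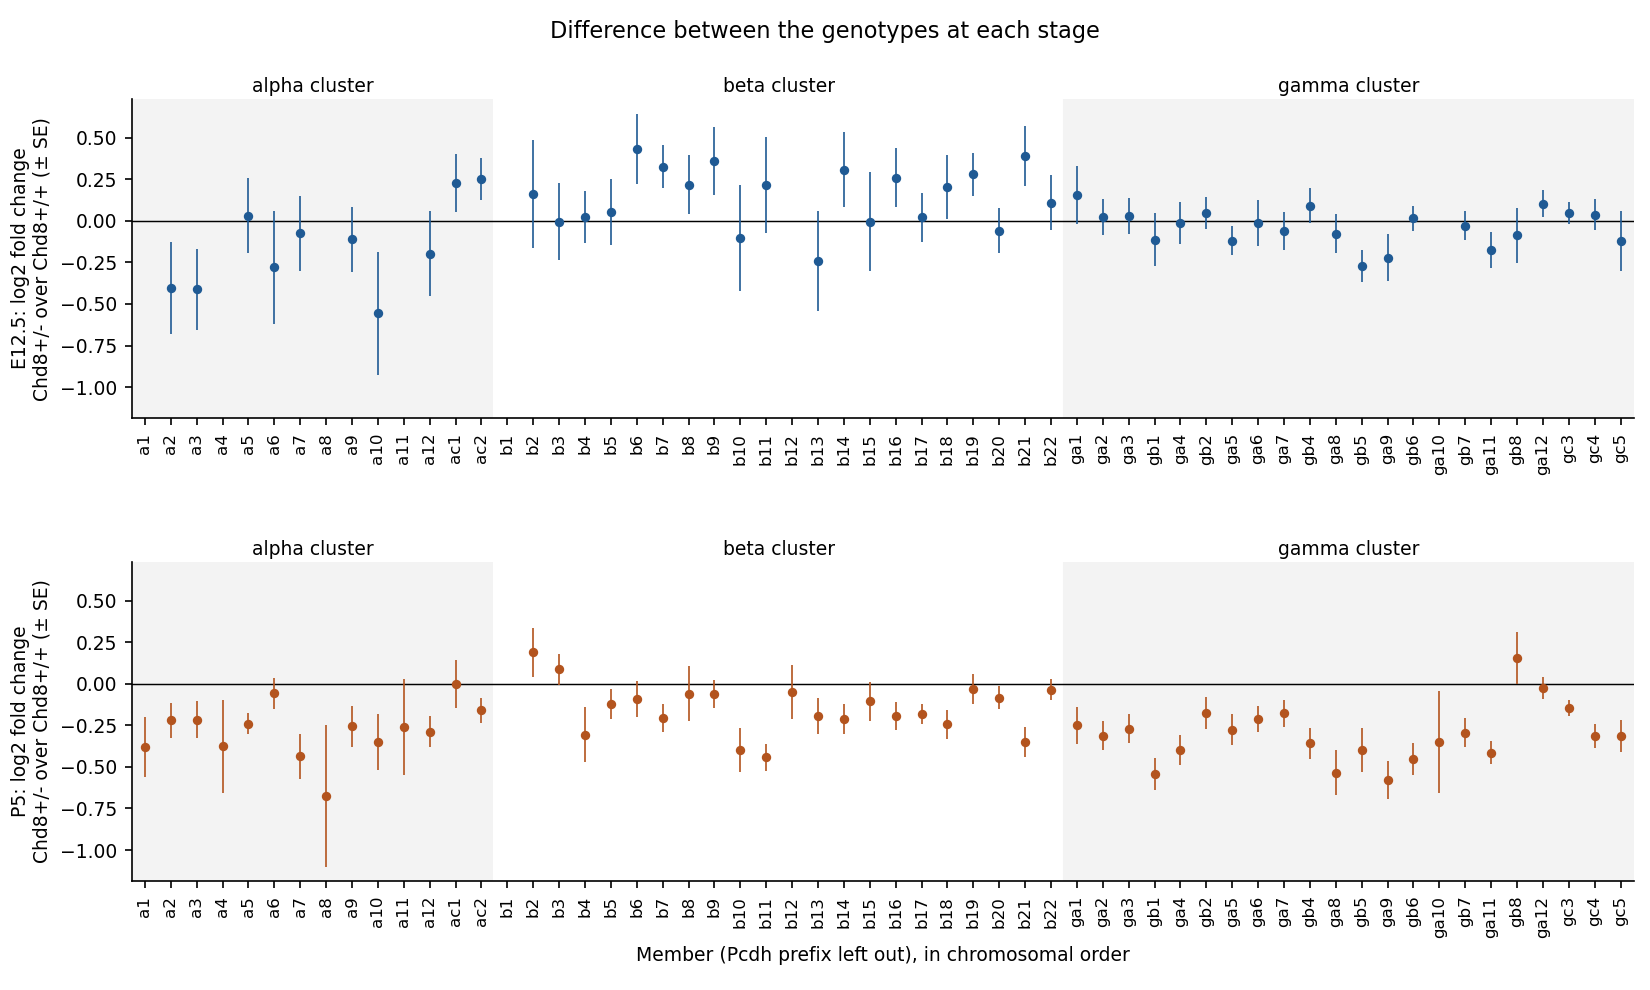
Log2 fold change of each member between Chd8+/- and Chd8+/+ cortex (edgeR, bars ± SE) at E12.5 (top) and P5 (bottom), with members in chromosomal order and gaps where a member was not tested. At E12.5 the members lie on both sides of 0, with a median of 0.02, and at P5 54 of 57 lie below 0, with a median of −0.25.

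Markers of several other tissue and cell types had lower values in the same P5 libraries, though edgeR called 0 of them in any list. Summed CPM of 6 markers of striatal neurons was 267 to 290.4 in the Chd8+/+ and 198 to 242.5 in the Chd8+/- libraries, with all 6 lower at an unadjusted p under 0.05 and 4 called by DESeq2, and 9.77% of all genes tested were lower at that p. That of 5 choroid plexus markers was 431 to 562 and 316 to 373 (5 of 5 lower, 4 at an unadjusted p under 0.05, 2 called by DESeq2), and that of 6 markers of GABAergic interneurons 458 to 476 and 366 to 441.2 (6 of 6 lower, 3 at an unadjusted p under 0.05, 1 called by DESeq2). Endothelial markers were at 141 to 157 and 129.5 to 141 (3 of 4 lower, all 3 at an unadjusted p under 0.05, 2 called by DESeq2) and erythrocyte markers at 53.5 to 56.1 and 38.8 to 51.5 (3 of 3 lower, 2 at an unadjusted p under 0.05, 0 called by DESeq2). Sums of 7 markers of all neurons (8110 to 8325 and 7752 to 8273) and of 7 of excitatory neurons (1282 to 1371 and 1265 to 1327) overlapped between the genotypes. In each of these lists 3 of 7 were lower, with median log2 fold changes of 0.012 and 0.0050. Of the all-neuron list 3 had an unadjusted p under 0.05, of which 2 were lower. Of the excitatory list 2 had such a p, both lower, and DESeq2 called 2. Sums of progenitor markers also overlapped (7 of 8 lower, 4 at an unadjusted p under 0.05, of which 3 were lower). The same held for astrocytes (5 of 6 lower), microglia (3 of 4), oligodendrocyte precursors (2 of 5) and meninges (0 of 4, 1 at an unadjusted p under 0.05). The part of these markers in the values of the members was not tested. At E12.5 Drd1 and Drd2 of the striatal list, Gfap of the astrocyte list and Cldn2 of the choroid plexus list were under 1 CPM.

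The interaction of genotype and stage asked directly whether the difference between genotypes changed from E12.5 to P5. No member was called by edgeR or voom, or by DESeq2, which gave an adjusted p to 3 members only, where 0.0% of all genes were called by edgeR. At an unadjusted p under 0.05 there were 17 members with a more negative difference at P5 and 0 with a more positive one, where the figures for all genes were 6.87% and 3.15%. The estimate was below 0 for 46 of 57 members, with a median of −0.26 beside −0.019 over all genes. By cluster the median was −0.11 for alpha, −0.31 for beta and −0.30 for gamma. The alpha median turned to 0.20 without the E12.5 Chd8+/+ library 1 and to 0.019 without the P5 Chd8+/- library 1, and that of beta was −0.19 without the former. The smallest p belonged to Pcdhb21, at −0.76 (SE 0.178, unadjusted p = 0.000847, adjusted p = 0.362, edgeR). It was followed by Pcdhgb6 at −0.48 and Pcdhb7 at −0.55 (both adjusted p = 0.362, edgeR). The estimates above 0 with the smallest p were those of Pcdha1 at 1.43, Pcdha8 at 1.20 and Pcdhgb8 at 0.23, and the first 2 rest on the few reads of these genes at E12.5. Some cell type markers also had a more negative difference at P5 at an unadjusted p under 0.05. They were 4 of 5 choroid plexus, 2 of 3 erythrocyte, 1 of 6 striatal and 1 of 4 endothelial markers. Of 8 progenitor markers 2 had such a p, 1 of them more negative, and of the other lists 0 did. The part of these markers in the estimates of the members was not tested.

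Other cadherin genes give a scale for these values. Of 10 delta protocadherins, which are adhesion proteins encoded outside the clusters, none was called at P5 by edgeR, and all 10 were lower (49.6% of all genes). At an unadjusted p under 0.05, 7 were lower (9.77% of all genes) and 0 higher (8.0%), and DESeq2 called 3 lower (3.55%). The median was −0.16, with Pcdh9 at −0.24, Pcdh10 at −0.21 and Pcdh17 at −0.18. With stage in Chd8+/+ cortex 8 of them were called higher and 1 lower, where 41.4% of all genes tested were called higher and 41.7% lower. Their median with stage was 2.15, close to that of the clustered genes. Of 20 classical and type II cadherins 18 were lower at P5 between the genotypes, none called by edgeR. At an unadjusted p under 0.05, 8 were lower (9.77% of all genes) and 1 higher (8.0%), and DESeq2 called 5 lower (3.55%). The median was −0.15, with Cdh2 at −0.19, Cdh11 at −0.19 and Cdh8 at −0.26. With stage in Chd8+/+ cortex 10 of these 20 cadherins were called higher and 4 lower, beside 41.4% and 41.7% of all genes. The lower P5 values were therefore also present in cadherin genes outside the clusters, at smaller medians, and this difference was not tested.

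Genes that lie within 1 Mb of the clusters on chromosome 18 were divided in direction. They include gene models inside the clusters that share exons with members, such as Gm26672 and BC037039. Of 44 such neighbours tested at P5, 28 were above 0 between the genotypes, with a median of 0.065, and none was called by edgeR. At an unadjusted p under 0.05 there were 6 higher and 3 lower, where 8.0% of all genes tested were higher and 9.77% lower. The lowest value was that of Gm26672, at −0.56 (unadjusted p = 0.0479, edgeR). DESeq2 called 2 higher, where it called 209 of 12467 genes higher. Those with the smallest p were Ndufa2 at 0.26, Zmat2 at 0.16 and Fchsd1 at 0.21.

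Regulators of promoter choice and chromatin at the clusters include Ctcf, the cohesin subunits and their loaders, and DNA and histone methylation enzymes. Between the genotypes edgeR called none of 29 at either stage. At P5, 23 were below 0 (49.6% of all genes), and the median was −0.057. At an unadjusted p under 0.05, 10 were lower (9.77% of all genes) and 0 higher (8.0%), and DESeq2 called 4 lower (3.55%). At E12.5, 3 were lower at an unadjusted p under 0.05 (2.84% of all genes) and 0 higher (2.31%), and DESeq2 called 0. At P5 Nipbl, the cohesin loader, was at −0.21, the cohesin subunit Smc3 at −0.18 and Smchd1, a repressor of the clusters, at −0.18. At E12.5 the smallest p among them was that of Dnmt3a, a DNA methyltransferase, at −0.21 (adjusted p = 0.924, edgeR). With stage most regulators went the opposite way to the clusters. In Chd8+/+ cortex 27 of 29 were called lower, where 41.7% of all genes tested were called lower and 41.4% higher. Their median was −1.35, and Smc3 fell by 1.75 and Wapl, which releases cohesin, by 1.83 on the log2 scale.

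Of 26 cytoplasmic and membrane partners of the clustered proteins, edgeR called none between the genotypes at P5 (17 below 0, median −0.042). At an unadjusted p under 0.05, 6 were lower (9.77% of all genes) and 3 higher (8.0%). DESeq2 called 2 lower (3.55% of all genes) and 1 higher (209 of 12467 genes). With stage in Chd8+/+ cortex 15 rose and 9 fell, with a median of 0.29, where 41.4% of all genes tested were called higher and 41.7% lower. The kinase Ptk2b, which is held inactive by clustered protocadherins, rose by 7.36, Prkca by 2.74 and the synaptic adhesion gene Nlgn1 by 2.24 on the log2 scale.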

How the data were processed

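RNA-seq counts of 12 mouse cortex libraries were used. The authors deposited raw counts per gene, with no normalisation, in 1 table per stage, each library as 2 sequencing runs. Per the submitters' processing notes and the study's methods, reads were checked with FastQC 0.11.2, trimmed with Trim Galore 0.4.1, aligned to GRCm38.p4 (mm10) with TopHat2 2.1.0 and counted with featureCounts 1.5.0 on Ensembl 82 genes. The P5 header records unstranded, gene-level, paired counting, so reads of a gene and of an antisense partner cannot be told apart. The command for E12.5 is not given in the sources used here. Gene lengths in the deposited tables, which are annotation and not per-sample values, served only as an alternative scale. The authors' tests used DESeq2 1.10.1.

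Runs were summed per library. Genes were tested with edgeR 4.0.16 (TMM, filterByExpr, quasi-likelihood test, Benjamini-Hochberg adjustment over all genes tested, threshold 0.05), the genotypes within each stage and the stages and the interaction in 1 fit of 12 libraries. The scripts ran under R 4.3.3 with limma 3.58.1 and DESeq2 1.42.0 and Python 3.11.15, and were tested on simulated data. CPM was scaled by TMM over all 12 libraries, and levels per kb used bases of a single gene, where these reached 1 kb. A fold change of a gene with few reads depends on the prior count. Cluster sums and shares carry no p. An adjusted p that DESeq2 left out stayed missing. DESeq2, voom, other size factors, filters, offsets for gene length, a threshold of 0.1, the replicate block and leaving out single libraries were alternatives.

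Symbols were matched by Ensembl identifier for 46005 of the 46603 genes. The identifier ENSMUSG00000007440, which shared the name Pcdha11 with another, was called Pcdha10 after RefSeq. Named members are the 3 highest per kb in each cluster, the C-type members, the 3 with the smallest p per direction and comparison, those against the direction of their cluster and those whose exons overlap other genes. From other lists the 3 genes with the smallest p were named. Other members given with values, such as Pcdhga9, Pcdhb4, Pcdhb9, Pcdhb10, Pcdhb13, Pcdhb14 and Pcdhga5, were chosen after their values were seen. The members, lists and rules were chosen with earlier results of these data known. No column of per-sample values was left unmapped.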

Additional observations from a re-analysis of the deposited data

Results flagged for a closer look

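Pcdhb21, a beta gene near the end of its cluster, had genotype differences of opposite sign at the 2 stages, neither of which passed the threshold. At E12.5 it had 1.23, 0.897 and 1.19 CPM in the Chd8+/+ and 1.53, 1.36 and 1.48 CPM in the Chd8+/- libraries, a log2 fold change of 0.39 (adjusted p = 0.942, edgeR) with every Chd8+/- library higher. At P5 it had 5.94, 6.20 and 5.67 against 4.51, 4.79 and 4.50 CPM, a log2 fold change of −0.35 (adjusted p = 0.117, edgeR) with every Chd8+/- library lower. The interaction estimate was −0.757 (SE 0.178, unadjusted p = 0.000847) and failed the adjustment over all genes tested (adjusted p = 0.362, edgeR, and 0.278 to 0.719 when single libraries were left out). The gene overlaps Pcdhb22 by 455 bases, and was picked out of 57 members for this pattern. Groups of 3 libraries were not screened for single libraries that stand apart.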

How the results depend on the processing

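At E12.5 and in the interaction the number of members called was 0 under every alternative run, and the medians of the members at P5 stayed between −0.27 and −0.20. The number called at P5, 0 in the reported test, was 11 with DESeq2, 13 on all genes with at least 1 count, 5 at an adjusted p under 0.1, and 0 to 7 with single libraries left out, 7 of them without the P5 Chd8+/- library 2. These settings also moved the calls over all genes, from 1 to 651 with DESeq2, 995 on all genes with at least 1 count and 327 without that library. Why these settings differ was not tested. With stage the median was 2.34 with DESeq2 in Chd8+/+ cortex, 2.15 to 2.33 there and 1.79 to 1.91 in Chd8+/- cortex with single libraries left out, and that of the interaction −0.31 to −0.17. The alpha sum rose by 3.03 on the log2 scale in Chd8+/+ cortex as a mean of log2 CPM, and the beta sum in Chd8+/- cortex by 2.05 so computed and by 2.16 with DESeq2 size factors. Per deposited gene length each of the 12 mean shares of C-type genes within alpha and gamma and of gamma B genes within gamma moved by more than 1 SD, that of C-type genes within alpha from 45.5% to 49.97% in Chd8+/+ cortex at E12.5. For 29 pairs of a member and a comparison, those named for their smallest p, 519 values were computed under alternatives, of which 500 kept their direction and side of the threshold, 16 gained a call, 3 lost one and 0 changed sign. Other members near 0 did change sign when single libraries were left out, such as Pcdhac1 at P5 (−0.15 to 0.12) and Pcdhgc4 at E12.5 (−0.039 to 0.11).

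The replicate numbers are shared by the groups, but deviations of same-numbered libraries correlated at −0.16, −0.064 and −0.049 at E12.5 and at 0.19, 0.078 and 0.038 at P5, so the numbers were not taken as pairs. With the replicate block 0 members were called between the genotypes at either stage, 56 with stage in Chd8+/+ and 54 in Chd8+/- cortex, and the P5 median was −0.25. Pcdhgb5 gained its stage call in Chd8+/+ cortex under the block (adjusted p = 0.0364, edgeR). Depth limits the members under about 0.2 CPM at E12.5.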
